A study of Mus musculus with 8 samples.

Results

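Collagens are the structural proteins of the extracellular matrix, and their mRNAs were examined here among the RNAs bound in mouse (C57BL/6) intestinal epithelium by DDX5, an RNA helicase of the DEAD-box family. Binding was mapped by eCLIPseq, an enhanced form of cross-linking and immunoprecipitation. The members were the protein-coding genes of the GENCODE M21 annotation (build GRCm38, also called mm10) whose symbol reads Col, a number, a and a number, and the listed eCLIPseq peaks that overlap such a gene on its own strand by at least 1 base. There were 44 such genes among 21951 protein-coding genes, and 19 of them carried a peak in any list. They held 128 of the 16455 peaks called with the antibody labelled mAb in colon, 109 of the 9146 peaks called with the antibody labelled rAb in colon, and 1 of the 1278 peaks listed for the small intestine. The family was picked with these values in view, because the peaks of Col3a1 mostly had fewer normalised reads in the immunoprecipitate (IP) than in input while Col6a6 was enriched in every list. The folds below are therefore a description of the members, and no test was run on them.

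In eCLIPseq, proteins are fixed to the RNA they touch with ultraviolet light and pulled down with an antibody, and the fragments that come with them are compared with a size-matched input, which is RNA of the same gel region taken before the pull-down. The value of a peak is the log2 of its IP reads over its input reads, each scaled by library depth, so that 0 means equal representation and a negative value means less in the IP than in input. A site, here, is a peak whose log2 fold and whose −log10 p are both at least 3. The small intestine samples were 2 CLIP and 2 input libraries from 8-week-old female wild-type mice, made with the paired-end protocol, and their list merges both replicates and holds sites only. In the labels, each colon antibody had 1 CLIP and 1 input library made with the single-end protocol, and the colon lists hold every called peak. All epithelial cells were released at 37 °C, starting with a 20 min incubation in 5 mM EDTA with 1 mM DTT. The methods describe a further 20 min wash in 5 mM EDTA without DTT, and the cells of both steps were pooled.

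For the colon the labels disagree among themselves. The genotype field reads wild type, whereas the growth protocol names 120-day-old Apc fl/+ CDX2Cre mice, in which 1 floxed copy of the tumour suppressor Apc can be deleted by a Cre recombinase under Cdx2 promoter control, active in intestinal epithelium. The mAb and rAb libraries also name the same catalogue antibody, so what distinguishes them is not known from the labels. The labels hold 1 CLIP library per colon antibody, whereas the name of each colon list says that replicates 1 and 2 were merged and the methods describe 2 mice as biological replicates, so a colon value may pool 2 libraries. With 1 merged list for each colon antibody and 1 for the small intestine, no value below has a spread between replicates, and tissue, genotype, protocol and the content of the lists cannot be told apart.

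Each collagen chain carries stretches of Gly-X-Y triplets, with glycine at the first place of each, and chains wind around each other in groups to form a triple helix. Types I, III and V (Col1a1, Col1a2, Col3a1, Col5a1, Col5a2) assemble into the fibrils that give connective tissue its tensile strength. Type IV (Col4a1, Col4a2) forms the network of basement membranes, type VI (Col6a1, Col6a2, Col6a3, Col6a6) makes beaded microfilaments, and type VII (Col7a1) makes the anchoring fibrils below epithelia. In the gut wall, fibrillar collagens are made mainly by fibroblasts and other stromal cells beneath the epithelium, while basement membrane chains are laid down where epithelium and stroma meet.

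The sequences that carry the results are those of the Col6a6 sites, the only sites on any collagen gene, and of the enriched and depleted coding peaks of the main fibrillar genes. All were read from the GRCm38 reference genome (RefSeq copy) on the strand of the gene, 5′ to 3′. The Col6a6 sites lie in intron 1 on the minus strand, and capitals mark the 29 bases, chr9:105819539-105819567, that fall inside the sites of all 3 lists.
Col6a6 small intestine site, chr9:105819517-105819568: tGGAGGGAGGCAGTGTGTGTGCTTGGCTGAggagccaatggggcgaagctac
Col6a6 mAb site, chr9:105819535-105819567: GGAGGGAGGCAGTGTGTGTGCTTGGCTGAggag
Col6a6 rAb site, chr9:105819539-105819568: tGGAGGGAGGCAGTGTGTGTGCTTGGCTGA

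The coding peaks are those with the highest log2 fold in Col1a1 and in Col6a1 and those with the lowest in Col1a1, Col1a2 and Col3a1, among coding peaks of at least 20 bases, with capitals on each glycine codon (GGN) in the reading frame. They show the regular glycine spacing of the helix-coding tract in the depleted peaks, and its absence from the enriched Col1a1 peaks.
Col1a1 mAb highest, chr11:94938002-94938095, plus strand: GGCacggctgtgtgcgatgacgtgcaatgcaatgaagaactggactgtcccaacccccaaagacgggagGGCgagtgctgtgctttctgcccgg
Col1a1 rAb highest, chr11:94938026-94938056, plus strand: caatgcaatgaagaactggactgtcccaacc
Col1a1 mAb lowest, chr11:94949177-94949225, plus strand: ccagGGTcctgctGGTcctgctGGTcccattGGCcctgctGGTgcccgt
Col1a1 rAb lowest, chr11:94944355-94944396, plus strand: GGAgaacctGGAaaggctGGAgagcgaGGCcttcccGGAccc
Col1a2 mAb lowest, chr6:4534639-4534675, plus strand: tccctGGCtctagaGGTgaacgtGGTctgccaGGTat
Col3a1 mAb lowest, chr1:45326571-45326601, plus strand: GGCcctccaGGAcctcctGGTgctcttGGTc
Col3a1 rAb lowest, chr1:45337426-45337452, plus strand: GGCcctgctGGTccccctGGCcctcct
Col6a1 rAb highest, chr10:76720974-76721011, minus strand: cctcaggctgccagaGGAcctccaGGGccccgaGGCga

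Collagen peaks in the colon lay low on the fold scale, and most strongly so in the mAb list. There the 128 peaks ran from -2.02 to 3.04 with a median log2 fold of -0.56, where all 16455 peaks had a median of 1.15 and the 8195 coding peaks of all genes 0.98. Below input were 88 of the 128 (68.8%), beside 16.1% of all mAb peaks and 22.2% of all coding mAb peaks. In the rAb list the 109 collagen peaks ran from -1.35 to 4.24 with a median of 0.65, where all peaks had a median of 2.24 and all coding peaks 1.65. Below input were 31 of 109 (28.4%), beside 7.93% of all rAb peaks and 8.55% of all coding rAb peaks. The family was chosen on these values, and nothing is read from the gap to the background. The exact 95% binomial interval of the rAb share was 20.2 to 37.9%, and the upper bound for the mAb share was 76.6%. Such intervals cover counting error only, and peaks of 1 gene share their mRNA and are not independent.

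A few genes set these medians. When each gene counted once, by the median of its own peaks, the median over collagen genes was 1.15 in mAb and 1.65 in rAb. The pooled medians thus rest on the genes with many peaks, and the values are given gene by gene below.

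**Figure D1:**
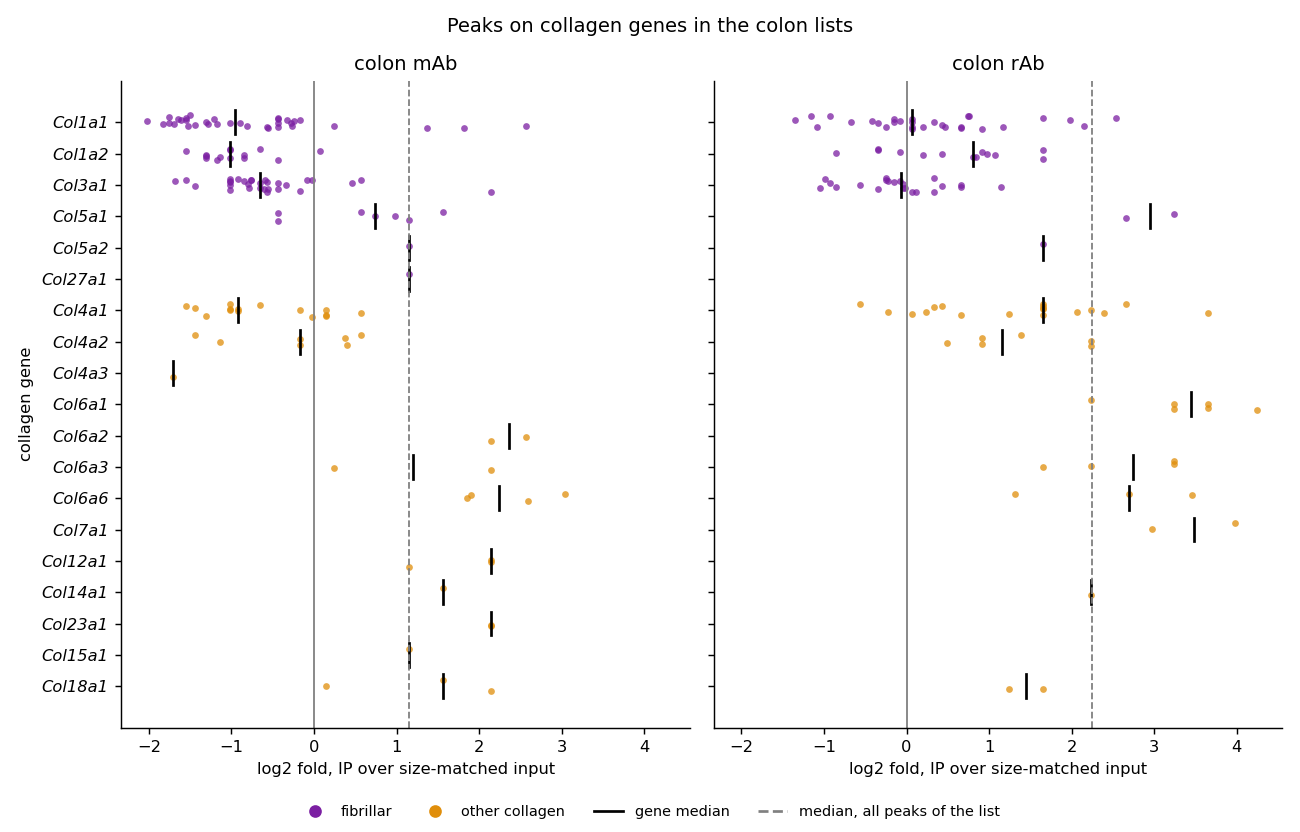
Log2 fold of IP over size-matched input for each collagen peak (points) by gene, in the colon mAb list (left) and the colon rAb list (right), with the gene median as a black bar, no change as a solid line and the median of all peaks in the list (1.15 and 2.24) as a dashed line. Peaks of Col1a1, Col1a2, Col3a1 and Col4a1 lie mostly left of 0 in mAb, and those of the type VI genes lie to the right in both lists.

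The fibrillar genes held most of the peaks. Col1a1 and Col1a2, which encode the chains of type I collagen, and Col3a1, which encodes type III, together had 78 of the 128 mAb peaks and 64 of the 109 rAb peaks. In mAb 70 of the 78 were below input (89.7%), with a median of -0.83, and in rAb 29 of the 64 (45.3%), with a median of 0.07. The rAb peaks thus lay around the level of input rather than clearly on either side of it.

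Col1a1 (ENSMUSG00000001506.10, chr11:94936224-94953042, plus strand) had 34 mAb peaks, of which 30 were below input, from -2.02 to 2.56 with a median of -0.96. Its 29 rAb peaks ran from -1.35 to 2.54 with a median of 0.07, and 11 were below input. Col1a2 (ENSMUSG00000029661.16, chr6:4504814-4541544, plus strand) had 14 mAb peaks from -1.55 to 0.08 with a median of -1.02, and 13 of them were below input. In rAb its 13 peaks lay between -0.85 and 1.65 with a median of 0.81, and 4 were below input. The 2 type I genes had nearly the same mAb median, and their rAb medians differed by more than their mAb medians did.

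Col3a1 (ENSMUSG00000026043.18, chr1:45311538-45349706, plus strand) had 30 mAb peaks from -1.68 to 2.15 with a median of -0.66, and 27 were below input. Its 22 rAb peaks had the smallest range among the 3 genes, -1.05 to 1.14, with a median of -0.06, and 14 were below input. It was the only collagen gene with a median below 0 in both lists. Its first-exon peaks, at -1.02 in mAb and 1.14 in rAb, also overlap Gm47302, a gene annotated as a miRNA on the same strand, so those reads cannot be given to Col3a1 alone.

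The fibrillar genes with few peaks lay higher. Col5a1, the main chain of type V collagen, which is built into type I fibrils, had 7 mAb peaks from -0.44 to 1.56 with a median of 0.73, and 2 of them, of 1 and 3 bases, were below input. Its 2 rAb peaks stood at 2.65, in exon 43 where a mAb peak at 0.73 was also called, and at 3.24 in the 3′ UTR. Col5a2 had 1 mAb peak at 1.15 and 1 rAb peak at 1.65, in different exons, and Col27a1 1 mAb peak at 1.15. Over these genes 2 of 9 mAb peaks and 0 of 3 rAb peaks were below input, with medians of 0.98 and 2.65. Within the fibrillar class the low values were therefore those of the type I and type III genes.

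The basement membrane genes had mostly peaks below input in mAb and few in rAb. Col4a1 (chr8:11198423-11312826, minus strand) had 15 mAb peaks from -1.55 to 0.56 with a median of -0.92, and 11 were below input. Its 18 rAb peaks ran from -0.57 to 3.65 with a median of 1.65, and 2 were below input. The highest coding ones lay close together in exons 15, 16 and 20, at 2.07, 2.24, 2.39 and 2.65. The adjoining Col4a2 (chr8:11312805-11449287, plus strand) had 7 mAb peaks from -1.44 to 0.56 with a median of -0.17, 4 of them below input, and 6 rAb peaks from 0.48 to 2.24 with a median of 1.15. For both genes together the below-input count was 15 of 22 in mAb and 2 of 24 in rAb. Col4a3, a further type IV chain, had 1 mAb peak at -1.71, which lies on n-R5s213, a 5S ribosomal RNA gene annotated within intron 1, so those reads cannot be given to Col4a3.

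The type VI genes had no peak below input in any list. In mAb their 8 peaks had a median of 2.15 and in rAb their 13 peaks a median of 3.24. Col6a1 had 6 rAb peaks from 2.24 to 4.24 with a median of 3.45 and no mAb peak. Col6a2 had mAb peaks at 2.15 and 2.56 and no rAb peak. Col6a3 had mAb peaks at 0.24 and 2.15 and 4 rAb peaks from 1.65 to 3.24 with a median of 2.74. Apart from Col6a6, no place on a type VI gene was called with both antibodies. The traced peaks of Col6a1, Col6a2 and Col6a3 rest on 3 to 6 IP reads and 1 to 3 input reads each. With 3 IP reads and 1 input read the log2 fold is 2.15 in mAb and 3.24 in rAb.

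The other classes gave 10 mAb and 5 rAb peaks, none below input. Col7a1 had adjacent-exon rAb peaks at 2.98 and 3.98. Among the fibril-associated collagens, which coat fibrils, Col12a1 had 3 mAb peaks from 1.15 to 2.15, and Col14a1 had 1 peak in each list, 1.56 in mAb and 2.24 in rAb, at the same place in intron 33. Col23a1, a membrane-spanning collagen, had 2 adjoining mAb peaks in intron 2, both at 2.15. Of the basement membrane zone collagens with interrupted helices, Col15a1 had 1 mAb peak at 1.15, and Col18a1 had 3 mAb peaks at 0.15, 1.56 and 2.15 and 2 rAb peaks at 1.24 and 1.65. No other collagen gene had a listed peak.

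Set side by side by class, the 87 fibrillar peaks in mAb had a median of -0.76 with 72 below input (82.8%), and the 41 peaks of other collagens a median of 0.24 with 16 below input (39.0%). In rAb the 67 fibrillar peaks had a median of 0.07 with 29 below input (43.3%), and the 42 others a median of 1.86 with 2 below input (4.76%). The difference of the medians, fibrillar minus other, was -1.0 in mAb and -1.79 in rAb. The difference was negative in both lists. The family was chosen with low values of the fibrillar Col3a1 and high values of Col6a6, of the other class, in view. Nothing is therefore read from the shared direction. Col4a1 and Col4a2 are counted among the other collagens and hold much of that class. They gave 22 of its 41 mAb peaks, at a median of -0.42 (-0.66 for 23 peaks with the one of Col4a3). In rAb they gave 24 of its 42 peaks, at a median of 1.52. Their medians are therefore not independent of the class median.

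Ranked among all genes with at least 3 peaks, from the lowest median up, Col1a2 had rank 47, Col1a1 rank 54, Col4a1 rank 58, Col3a1 rank 93 and Col4a2 rank 200 of 2099 genes in mAb. Medians below 0 were held by 12.4% of those genes (260), and by 5 of the 9 collagen genes ranked. Col5a1 had rank 654, Col18a1 rank 1185, Col12a1 rank 1450 and Col6a6 rank 1980. In rAb the ranks among 1171 genes were 74 for Col3a1, 85 for Col1a1, 221 for Col1a2, 313 for Col4a2, 444 for Col4a1, 845 for Col6a6, 846 for Col6a3 and 1138 for Col6a1. There 6.66% of genes (78) had a median below 0, and 1 of 8 collagen genes did. The ranked type VI genes, Col6a6 alone in mAb and Col6a6, Col6a3 and Col6a1 in rAb, lay in the upper part of their list. Col6a6 stood near the top in mAb and Col6a1 in rAb, and Col1a1 and Col3a1 stood in the lowest part of both. The rAb peaks of Col6a1 and Col6a3 rest on 3 to 6 IP reads each, and the Col6a6 peaks lie on a stretch also found elsewhere in the genome, as given below.

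Among genes with at least 10 peaks, medians below 0 were held by 46 of 287 genes (16.0%) in mAb and by 7 of 111 (6.31%) in rAb. Of the 4 collagen genes with that many peaks, Col1a1, Col1a2, Col3a1 and Col4a1, all 4 were below 0 in mAb and 1 was in rAb.

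**Figure D2:**
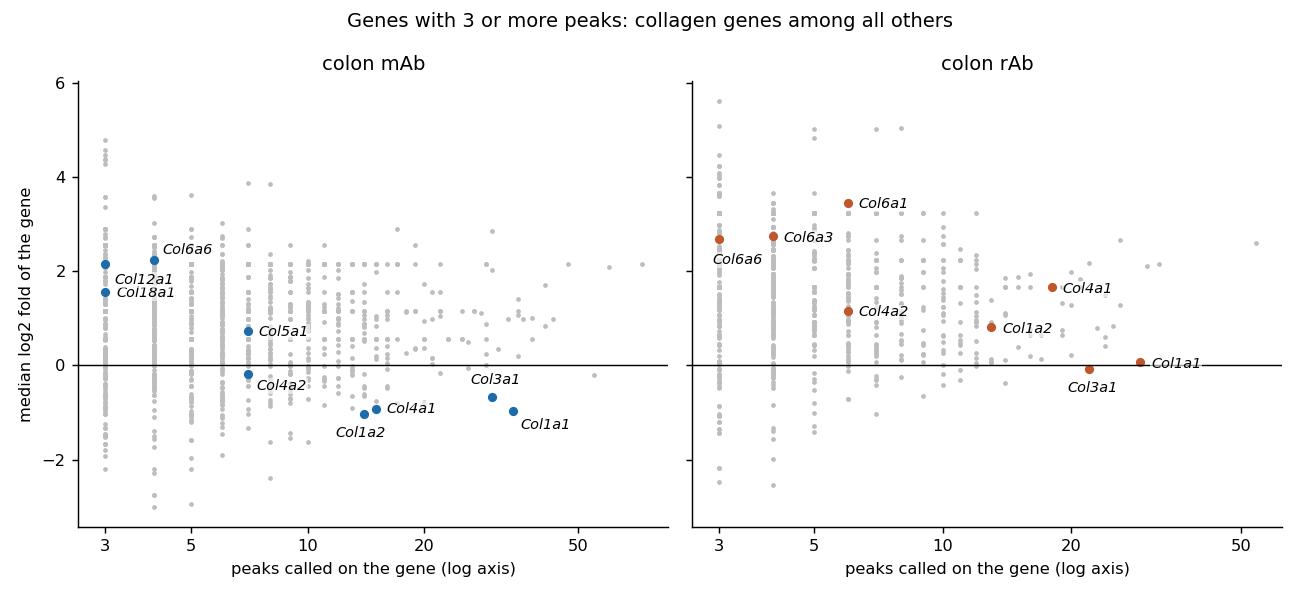
Median log2 fold of each gene with 3 or more peaks against the number of its peaks (log axis), in the colon mAb list (left, 2099 genes) and the colon rAb list (right, 1171 genes), with collagen genes coloured and named and all others in grey. Col1a1, Col3a1, Col1a2 and Col4a1 combine many peaks with a median below 0 in mAb, and in rAb Col1a1 and Col3a1 lie at about 0 while Col6a1 lies among the highest.

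Positions were not used to choose the family. Of collagen peaks, 88.3% overlapped coding sequence in mAb and 86.2% in rAb, where 49.8% and 55.5% of all peaks did. Peaks reached 28.1% of the Col1a1 coding bases in mAb and 26.1% in rAb, but 3.79% and 6.17% of its 3′ UTR. In Col3a1 they reached 30.5% and 18.6% of the coding bases and none of the 3′ UTR, and in Col1a2 9.45% and 10.5% and none. Col4a1 differed, with 9.85% and 10.6% of coding bases, none of the 3′ UTR in mAb and 15.3% of it in rAb, in 3 peaks of 1.65, 1.65 and 3.65. The 15 non-coding collagen peaks in each list had medians of 1.9 in mAb and 1.98 in rAb, with 2 and 1 below input, and so lay above the coding ones. They include the 4 mAb and 3 rAb peaks of Col6a6, whose stretch is also found elsewhere in the genome, and the Col4a3 peak on a 5S ribosomal RNA gene. The other traced ones rest on 3 to 7 IP reads each. Coding and non-coding peaks also lie on partly different genes.

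**Figure D3:**
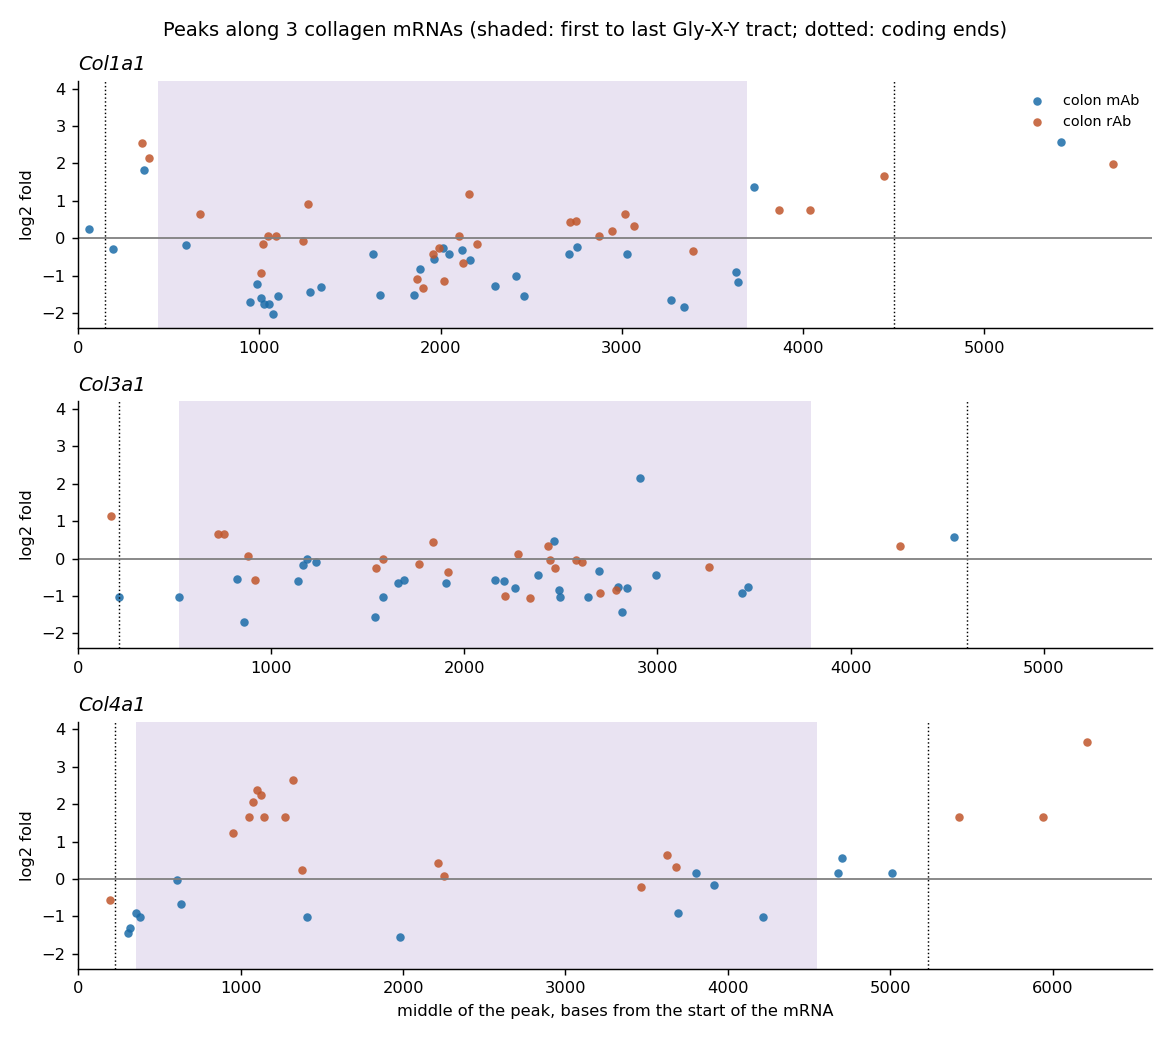
Log2 fold of each peak on the Col1a1, Col3a1 and Col4a1 mRNAs against its place along the spliced mRNA (bases from its start), for the colon mAb and rAb lists, with the stretch from the first to the last Gly-X-Y tract shaded and the ends of the coding sequence dotted. In Col1a1 and Col3a1 the low peaks are spread over the shaded stretch, and the peaks of Col1a1 exon 2 stand near the 5′ end, outside it, at 1.82 in mAb and at 2.54 and 2.15 in rAb.

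The coding peaks lie mostly in helix-coding sequence. Glycine made up 30.7% of the codons under mAb collagen peaks and 29.2% under rAb collagen peaks, beside 8.82% and 8.40% under the coding peaks of all genes. Codons inside a Gly-X-Y tract, defined as at least 10 triplets in a row with a GGN codon at the first place of each, were 78.8% and 78.1%, beside 1.01% and 1.33%. Collagen chains carry such tracts by nature, so nothing is read from that gap. The collagen peaks themselves hold 1110 of the 1131 tract codons of all mAb coding peaks and 876 of 897 in rAb. The whole coding sequence of Col1a1 has 26.8% glycine codons and 73.3% of its codons in such tracts, that of Col1a2 27.8% and 77.2%, and that of Col3a1 28.3% and 73.2%. Under the peaks of these 3 genes alone the glycine share was 31.3% in mAb and 29.4% in rAb, and the tract share 86.9% and 82.3%, above that of the coding sequences they lie on. Col6a6 is unlike them, with 10.6% glycine codons and 11.8% in tracts. Median GC content was 63.2% for mAb and 63.1% for rAb collagen peaks, and 56.0% and 55.6% for all peaks.

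A coding peak was counted as inside when at least as many of its whole codons lay in a tract as outside one. Coding peaks without a whole codon were left out. Inside the tract Col1a1 had 27 mAb peaks, all 27 below input, from -2.02 to -0.17 with a median of -1.28. Outside it there were 3 coding peaks from -0.28 to 1.82, with a median of 1.37 and 1 below input. In rAb, 11 of the 23 peaks inside were below input, with a median of 0.07, and 0 of the 5 outside, which ran from 0.75 to 2.54. The 2 sets of Col1a1 peaks did not overlap in fold in mAb except for the 1 peak at -0.28, and the sets in rAb overlapped between 0.75 and 1.17.

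For Col1a1, Col1a2 and Col3a1 together, 63 of the 66 mAb peaks inside were below input (95.5%, exact 95% interval 87.3 to 99.1%), with a median of -0.85, and 3 of the 6 outside, with a median of 0.14. Among those 3 is a Col1a2 peak at -1.17 with 9 of its 19 codons in a tract. In rAb it was 29 of 56 inside (51.8%), with a median of -0.04, and 0 of 6 outside, with a median of 1.21. The peaks outside are few, and their intervals are wide, 11.8 to 88.2% in mAb and up to 45.9% in rAb. Col4a1 and Col4a2 had 11 of 12 below input inside in mAb, at a median of -0.92, and 3 of 9 outside, at 0.15. In rAb the medians were 1.65 for 13 peaks inside and 0.48 for 3 outside. Those 3 lie between the first and last tract of their chains, with glycine at 4 of 14, 2 of 8 and 6 of 20 codons. They count as outside only because no run of 10 triplets covers them, so nothing is read from the order of the rAb medians. With 1 of the 13 inside peaks below input, lying in a Gly-X-Y tract did not go with a low fold in every collagen and list. The highest collagen peak of the rAb list, in Col6a1, has 7 of its 10 codons in one.

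The clearest coding exception was exon 2 of Col1a1, which lies upstream of the helix, in the region for the N-terminal propeptide that is cleaved off the secreted chain. The mAb peak there, codons 57 to 87, stood at 1.82 on the log2 scale, from 31 IP and 13 input reads with a −log10 p of 4.05 (exact 95% interval 0.84 to 2.88). The rAb list had 2 adjoining peaks in the same place, one at 2.54 with a −log10 p of 7.68 from 24 IP and 13 input reads (1.51 to 3.64) and one at 2.15 with a −log10 p of 6.18 from 24 and 17 reads (1.20 to 3.14). Both antibodies thus gave more IP than input at a place in an mRNA that was otherwise mostly at or below input. All of these peaks missed the fold cutoff of 3. Read numbers and intervals are traced values, the smallest whole IP and input reads that give the deposited fold and −log10 p.

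Col6a6 was the only collagen gene with a site, 1 in each list: 1 of the 201 mAb sites, 1 of the 182 rAb sites and 1 of the 1278 small intestine sites. Sites were 1.22% of all mAb peaks and 1.99% of all rAb peaks, while the small intestine list holds sites alone (100%). Col6a6 (ENSMUSG00000043719.14, chr9:105687809-105828160, minus strand) encodes a type VI chain with long stretches outside the helix. All of its listed peaks lay within 273 bases of intron 1, more than 500 bases from an exon, and none on an exon.

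The mAb list had 4 Col6a6 peaks. At chr9:105819296-105819395 the log2 fold was 1.9 from 53 IP and 21 input reads, at chr9:105819451-105819477 it was 1.85 from 22 and 9, and at chr9:105819478-105819534 it was 2.59 from 61 and 15. The site at chr9:105819535-105819567 stood at 3.04, with a −log10 p of 8.68 from 39 IP and 7 input reads and an interval of 1.86 to 4.45, which takes in the cutoff. The rAb list had peaks of 1.31 at chr9:105819296-105819362 from 15 IP and 19 input reads and of 2.69 at chr9:105819453-105819538 from 39 and 19. Its site at chr9:105819539-105819568 stood at 3.46, with a −log10 p of 12.6 from 28 and 8 reads and an interval of 2.29 to 4.81. The small intestine site at chr9:105819517-105819568 stood higher, at 5.98, with a −log10 p at the cap of 400. In both colon lists the fold was highest at the 5′ end of the stretch on the minus strand, and the small intestine site lay at the same end.

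**Figure D4:**
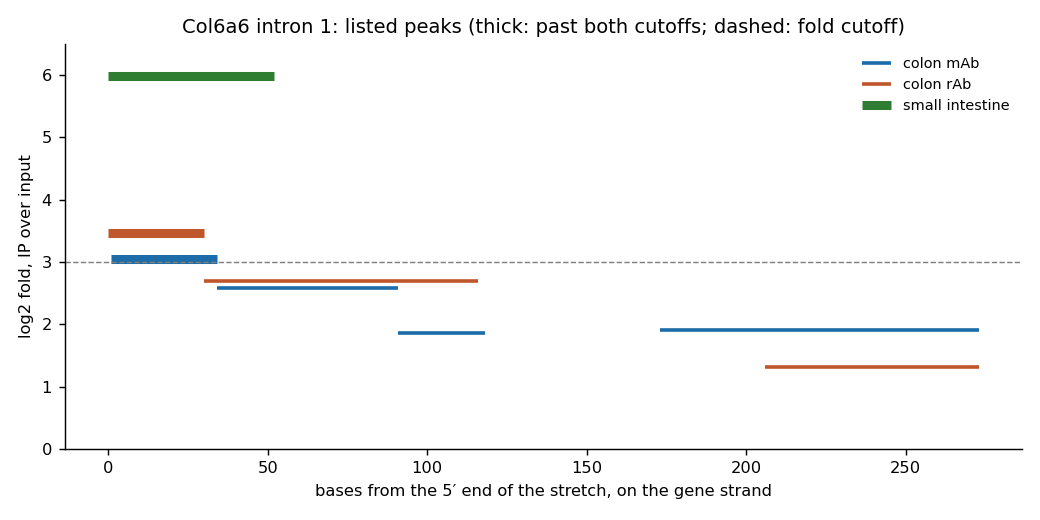
Log2 fold of each listed peak within the 273-base stretch of Col6a6 intron 1, by distance along the stretch, for the colon mAb, colon rAb and small intestine lists, with sites drawn thick and the fold cutoff of 3 dashed. The sites of all 3 lists share 29 bases at one end of the stretch, and the small intestine site lies highest, at 5.98.

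The stretch is not single copy. A BLAST search of the genome with the 273 bases found 18 other places, with 43 to 253 aligned bases at 74.6 to 95.3% identity, and 6 of these hold a gene annotated as a miRNA. Listed peaks lay at 6 of the 18 places (4 with mAb, 3 with rAb, 5 with small intestine peaks), with sites at 1, 1 and 5 of them. At the place within Peak1, chr9:56223731-56223953, the best fold was 3.43 for mAb, 1.92 for rAb and 5.90 for small intestine peaks, and at the one within Gm26561, a long non-coding RNA gene, 0.91, 2.65 and 4.61. Under a stricter rule, a peak with 15 bases on either side found elsewhere over at least 80% of its length at 90% identity or more, 3 of the 4 mAb and 1 of the 3 rAb Col6a6 peaks had another place, none of the 3 sites did, and no peak of another collagen gene did. By the same rule 14.4% of all mAb sites, 24.2% of all rAb sites and 8.29% of all small intestine sites had one. How the deposited alignments placed reads that match several of these places is not given in the sources used here. The Col6a6 values are therefore those of reads placed there, and whether the RNA came from Col6a6 was not tested. The stretch had 0 matches of 20 or more bases at 90% identity among the 65 annotated ribosomal RNA sequences. That annotation holds only 420 bases of the 28S ribosomal RNA gene Rn28s1, so likeness to the rest of 28S ribosomal RNA was not tested.

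Just outside the cutoffs was the Col6a1 exon 8 peak of the rAb list, which reached 4.24 on the log2 scale with 6 IP reads and 1 input read (interval 1.20 to 9.76), and whose −log10 p was 2.96. Adjoining rAb peaks in exons 6 to 8 run over codons 242 to 262 with 3 to 6 IP reads each, and the Gly-X-Y tract of this chain starts at codon 256. The Col7a1 peak at 3.98 had a −log10 p of 2.41 from 5 and 1 reads, and the Col4a1 3′ UTR peak at 3.65 one of 1.87 from 4 and 1. These 3 peaks were past the fold cutoff and not the −log10 p cutoff, whereas the Col1a1 exon 2 peaks were past the −log10 p cutoff and missed the fold. The Col6a6 mAb site, at 3.04, was the member nearest inside the fold cutoff.

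The same places were called with both antibodies in 47 pairs of overlapping collagen peaks, which share tissue and, as far as the labels say, the antibody. An overlap of 1 base was enough, and the pairs come from 38 mAb and 42 rAb peaks, so some peaks are counted more than once. Across the pairs Spearman's rho was 0.501 and Pearson's r 0.767, given as a description, beside 0.743 and 0.764 over the 3291 pairs of all genes. The rAb value was higher in 36 of 47 pairs, by a median of 0.68, and the median over all pairs was 0.67, so the shift between the lists on collagens was that of all genes. In 18 pairs both values were below 0, in 18 only the mAb value, in 2 only the rAb value and in 9 neither.

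Within Col1a1, rho was 0.251 and r 0.616 over 22 pairs, of which the 2 of exon 2 lie far above the rest, and within Col3a1 rho was -0.383 and r -0.21 over 13 pairs. Without Col3a1 rho was 0.690 over 34 pairs. All 5 Col6a6 pairs, from 4 mAb and 3 rAb peaks, were enriched in both lists. Below input in both were 10 of the 22 Col1a1 pairs and 7 of the 13 Col3a1 pairs. The 2 Col1a1 pairs above 0 in both were those of exon 2, which share 1 mAb peak.

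**Figure D5:**
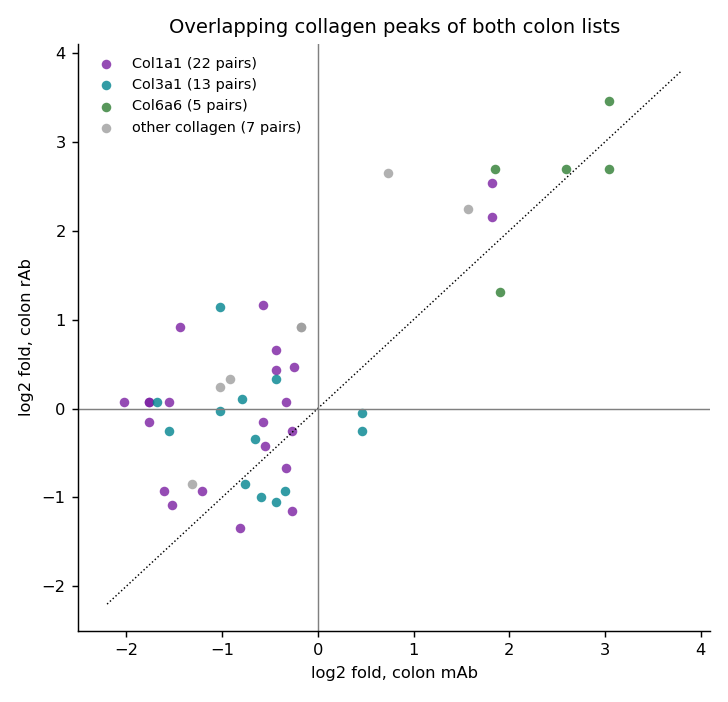
Log2 fold in the rAb list against log2 fold in the mAb list for the 47 overlapping pairs of collagen peaks, coloured by gene, with equal values on the dotted line. Pairs of Col6a6 and of Col1a1 exon 2 lie at the upper right. The rest of Col1a1 and Col3a1 lie mostly below 0 in mAb and on either side of 0 in rAb, spread without a clear order.

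The depth behind the values with traced reads was small. The input libraries were deeper than the IP libraries, by 1.48 times in mAb and 3.15 times in rAb, as recovered from the deposited values. Whole reads could be traced for 33 of the 128 mAb and 74 of the 109 rAb collagen peaks, with a median of 4 IP reads in each list. Among these traced peaks, at least 10 IP reads stood behind 6 in mAb and 9 in rAb, all in Col1a1, Col3a1 and Col6a6. The other 95 mAb and 35 rAb peaks may also have that many, since their reads are not known in full. Every peak below input has a deposited −log10 p of 0, in both lists, so its reads are known only as the lowest whole numbers that give its fold, and how firmly any 1 of these peaks lies below input cannot be read from the list. Of the traced Col1a1 peaks within the tract in rAb, the best covered were 2 at 0.07, each from 18 IP and 54 input reads with an interval of -0.79 to 0.86.

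Genes that make, process, bind and degrade collagen had no site among their few colon peaks, where sites are 1.22% of all mAb and 1.99% of all rAb peaks, and nothing is read from it. Of the 18 genes for enzymes and carriers that modify, fold and export collagen chains, 6 had a mAb peak (20 peaks, median 0.15, 7 below input) and 5 a rAb peak (24 peaks, median 1.52, 2 below input). P4hb, the protein disulfide isomerase that is also a subunit of prolyl 4-hydroxylase, had 8 mAb peaks from -1.52 to 0.56 and 10 rAb peaks from -1.40 to 1.65, and it was the only gene of these groups with small intestine sites, 3 of them from 3.16 to 4.90. Sec31a, a coat protein of vesicles leaving the endoplasmic reticulum, had 6 mAb peaks with a median of 1.15 and 9 rAb peaks with a median of 1.98. Mia3, which loads large cargo such as procollagen into those vesicles, had 1 mAb peak at 0.15 and 3 rAb peaks, all at 3.24. Processing and cross-linking genes had 4 mAb peaks on 3 of 12 genes (Loxl1, Loxl2 and Tgm2), median 1.22, and 1 rAb peak, on Adamts14, at 3.24.

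Collagen receptors had 18 mAb peaks on 4 of 10 genes, median 1.02, and 5 rAb peaks on 3, median 3.24. Itgb1, the integrin beta 1 chain, had 6 mAb peaks from -1.52 to 1.15, and Ddr1, a collagen-binding receptor tyrosine kinase of epithelia, 6 from -0.17 to 2.15. Itga2, the alpha chain of a collagen-binding integrin, had 4 mAb peaks from -0.02 to 2.89, and Mrc2, a receptor that takes up collagen, had 3 rAb peaks, all at 3.24. Of 11 genes for breakdown and its inhibitors, 10 of which are in the annotation, 5 had mAb peaks (17 peaks, median -0.02, 9 below input) and 4 rAb peaks (8 peaks, median 1.45, 2 below input). The epithelial matrix metalloproteinase Mmp7 had all 6 of its mAb peaks below input, from -1.76 to -0.54, and both rAb peaks, at -0.25 and -0.22. Mmp14, a membrane-bound collagenase, had 4 mAb peaks from -0.66 to 2.15 and 3 rAb peaks from 1.02 to 3.65, and Mmp13 had 3 mAb peaks from -0.76 to 1.98.

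The samples are labelled epithelial, and markers of other cells were looked up among the peaks. The lists hold peaks and not expression levels. Epithelial markers had 172 mAb peaks on 10 of 11 genes, with a median of 0.56 and 31.4% below input, 91 rAb peaks on 9 genes (0.43, 27.5%), and 40 small intestine sites on 6 (Krt20, Krt8, Epcam, Vil1, Cdh1 and Lgals4). In mAb, Krt8 had 4 sites and Muc2 1. The epithelial genes with most mAb peaks, Cdh1, Muc2 and Vil1, had medians of 0.83, 1.08 and 0.95. Epcam lay lower, with 17 mAb peaks (median -0.80, 10 below input) and 13 rAb peaks (median 0.07, 6 below input). Lgals4 had 15 mAb peaks (median 0.13, 7 below input) and 11 rAb peaks (median 0.54, 1 below input). Fibroblast markers had 58 mAb peaks on 4 of 15 genes, Fn1, Vim, Sparc and Pdgfra (median 0.09, 43.1% below). In rAb they had 53 peaks on 7 genes, the same 4 with Bgn, Fbln1 and Pdgfrb (median 0.92, 13.2% below). The remaining ones, Dcn, Lum, Fbln2, Postn, Thy1, Mmp2, Fbn1 and Eln, had none in either list.

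Smooth muscle markers had 3 peaks in each colon list, on 2 of 7 genes (Acta2 and Myh11 in mAb, Tagln and Mylk in rAb). Endothelial markers had none on 5 genes. Immune markers had 13 mAb peaks with a median of -1.33 (84.6% below) and 12 rAb peaks with a median of -0.12 (58.3% below), all on Cd74 and Lyz2. No fibroblast, muscle, endothelial or immune marker had a small intestine site, in a list of 1278 sites in all, and nothing is read from their absence. Of the keratins in the epithelial list, mAb medians were -0.40 for Krt18, -0.44 for Krt19, 0.27 for Krt8 and 0.56 for Krt20, and rAb medians -0.11, 0.01, -0.02 and 2.24 in the same order. The part that stromal RNA has in the collagen values was not tested. In bulk samples such as these, fewer cells of a type and less RNA per cell cannot be told apart.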

How the data were processed

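Libraries were trimmed with cutadapt 1.9.1 and aligned with STAR 2.4.0i to mm10 (SAMtools 1.4.1), per the submitters' processing notes; the authors then called peaks on IP reads with CLIPper and compared IP with size-matched input reads at each peak. The deposited values are the log2 fold of depth-normalised IP over input and its −log10 p value. The small intestine list was merged over 2 replicates by IDR. The 2 value columns of a table that matched no sample were not used.

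Peaks were assigned to GENCODE M21 genes on the same strand by at least 1 base, with coding sequence first and introns within 500 bases of an exon as proximal. The longest coding transcript gave codons. IP and input reads were traced from the fold and −log10 p (tolerance 1%), which succeeded for 98.8% of mAb and 99.2% of rAb peaks with a value above 0. The method was tested on simulated data. Named are collagen genes with a site, Col3a1, Col6a6, those with 3 or more peaks, those with the highest and lowest peaks, and, by count, the others. Of each pathway and marker list, genes with a site and the 3 with most colon peaks are named. Pdgfra, Bgn, Fbln1, Pdgfrb, Krt18, Krt19 and the markers named as without peaks were chosen after their values were seen. The members and lists were chosen with earlier results of these data known. Software was python 3.11.15, pandas 2.3.3, scipy 1.17.1, pysam 0.24.0 and blastn 2.17.0.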

Additional observations from a re-analysis of the deposited data

How the results depend on the processing

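Over 109 alternatives to the values on collagen peaks, 90 left the value close to where it was, 17 moved it and 2 changed its sign. With only peaks of at least 10 traced IP reads, 6 mAb and 9 rAb peaks remained, the share below input was 0% in both lists, since peaks below input have no traced reads, the median log2 fold was 1.88 in mAb and 1.31 in rAb, and fibrillar minus other was -2.4 in rAb. With the median of the medians per gene, the value was 1.15 in mAb, which reversed its sign, and 1.65 in rAb. A log2 fold cutoff of 4 gave 0 mAb and 0 rAb sites, and a cutoff of 1 gave 5 and 4. Counting as below input a log2 fold under -1 gave 33.6% in mAb and 3.67% in rAb. Requiring a log2 fold under 0 and a −log10 p of 3 gave 0% in both. That result was fixed in advance, because every peak below input has a deposited −log10 p of 0. Without Col3a1, the rAb share below input was 19.5% and rho between the lists 0.69. What caused the remaining changes was not tested. Leaving out recurring sequences, short peaks or Col1a1 was chosen after seeing the data and moved none of these values. No paired analysis was possible because replicate numbers are shared only by the small intestine libraries, and these are merged in 1 list without values per replicate. For the same reason the Col6a6 value of each replicate alone was not run. Of the collagen peaks with traced reads, 27 of 33 in mAb and 65 of 74 in rAb rest on fewer than 10 IP reads, which limits how finely they can be ranked. The reads of the others are known only as lower bounds.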
